A study of Mus musculus with 14 samples.

Results

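Histone and histone variant genes were followed in organoids grown from mouse tumors of the small intestine (labelled APT), in which a doxycycline-inducible short hairpin RNA was directed against Suv4-20h2 (gene symbol Kmt5c). Members were the genes whose GENCODE M21 symbol begins with Hist1h to Hist4h, H1f, H2af or H3f3 and which are listed in the count files of both sets of libraries. Of 91 genes with such a symbol, 37 met this rule, among 17487 genes listed in both file types. They comprised 24 replication-dependent histone genes, 8 polyadenylated variants (H2af and H3f3 genes), 3 H1f linker histone genes, the antisense RNA H3f3aos and the pseudogene Hist3h2bb-ps.

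Hairpin 1, which targets exon 4, has 3 libraries and 3 of its own control, control 1, and these 6 are called set 1. Hairpin 2, which targets exon 9, has 4 libraries and 4 of control 2, called set 2. Controls carried a control hairpin, and all 4 groups, controls included, received 0.5 µg/ml doxycycline for 4 days. The labels give each hairpin and its control as 1 numbered clone, do not expand the name APT or list its alleles, and do not say whether replicates were separate cultures, so p-values measure only the spread between these libraries. Each hairpin has its own controls, and hairpin and set cannot be told apart from any batch between the sets.

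Nucleosomes are built from core histones H2A, H2B, H3 and H4 and are closed by linker histone H1. The replication-dependent genes lie mostly in clusters and are expressed in S phase. Their mRNAs end in a conserved stem-loop and normally carry no poly(A) tail, so libraries made by poly(A) selection, as here, catch them poorly. Replacement variants and H1f linker genes lie mostly outside the clusters, and most of them are not tied to S phase and have mRNAs with ordinary poly(A) tails. H2afx is known to give both a stem-loop form and a polyadenylated form. Suv4-20h2 methylates histone H4 in nucleosomes and is known for its role at heterochromatin.

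The stem-loop is shown because mRNAs that end in it are the ones that poly(A) selection catches poorly. Among 16-base stretches that can fold into a stem of 6 base pairs and a loop of 4 bases, 1 was found in the transcripts of 13 replication-dependent members and every other one in 3 or fewer. It was thus present in the annotated transcripts of 13 of the 35 protein-coding members, which is 37.1%, against 0.127% of 22028 protein-coding genes of the annotation. The stretch was chosen by its presence in these members, which are also among the 22028 genes. The shares therefore describe the stretch and test nothing. Another form in 3 H4 genes and a further one in Hist1h3g each had 2 mismatches to the first. Each stretch is printed wholly in capitals, mismatches included, in DNA letters of the sense strand, 5′ to 3′.
Hist1h1c and 12 other members: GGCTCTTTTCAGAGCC
Hist1h4d, Hist1h4h and Hist4h4: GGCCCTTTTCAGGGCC
Hist1h3g: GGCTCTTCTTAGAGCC
All 17 members with a match at up to 2 mismatches were replication-dependent. No match was found in the annotated transcripts of the other 7 replication-dependent genes, which were Hist1h1b, Hist1h2bc, Hist1h4a, Hist1h4i, Hist1h4j, Hist2h2be and Hist2h4, nor in those of the variants and H1f genes. In Hist1h1c the annotated transcript ran on for 840 bases past the stem-loop, in Hist3h2a for 1643 and in Hist1h2bj for 23.

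Promoter sequence is shown for 6 members, the linker histone genes of the replication-dependent class and the 2 genes that fell most with hairpin 2. Windows of 250 bases before the start were matched for 31 members in the RefSeq table (GRCm38.p6). The heptamer AAACACA, known as the H1 box, was searched on both strands and occurred in the windows of all 4 replication-dependent H1 genes and of H3f3a, against 6.25% of 32851 windows of the same length. The pentamer CCAAT, searched on both strands, occurred in 22 of the 31 members and in 33.8% of all windows. The last 130 bases before the RefSeq start are printed 5′ to 3′ on the gene's strand, with capitals marking these motifs. For Hist1h1d, H1fx and H2afy2 the printed bases lie inside the GENCODE M21 gene span. For these genes they are therefore not upstream of the GENCODE start.
Hist1h1b, chr13:21780626-21780755, minus strand: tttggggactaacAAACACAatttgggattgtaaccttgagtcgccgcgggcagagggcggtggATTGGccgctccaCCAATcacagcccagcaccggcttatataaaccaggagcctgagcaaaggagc
Hist1h1c, chr13:23738677-23738806, plus strand: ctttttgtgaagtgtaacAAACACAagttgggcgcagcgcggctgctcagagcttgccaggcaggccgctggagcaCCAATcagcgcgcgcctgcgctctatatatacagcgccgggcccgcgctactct
Hist1h1d, chr13:23554902-23555031, plus strand: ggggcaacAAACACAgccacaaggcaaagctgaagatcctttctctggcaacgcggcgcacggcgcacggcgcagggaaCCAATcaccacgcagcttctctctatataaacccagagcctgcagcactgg
Hist1h1e, chr13:23622559-23622688, minus strand: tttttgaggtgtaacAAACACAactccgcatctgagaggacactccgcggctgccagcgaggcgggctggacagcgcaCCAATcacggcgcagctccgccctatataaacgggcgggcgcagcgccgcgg
H1fx, chr6:87981483-87981612, minus strand: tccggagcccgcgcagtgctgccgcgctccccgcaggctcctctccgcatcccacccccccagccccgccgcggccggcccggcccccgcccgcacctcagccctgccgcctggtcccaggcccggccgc
H2afy2, chr10:61783865-61783994, minus strand: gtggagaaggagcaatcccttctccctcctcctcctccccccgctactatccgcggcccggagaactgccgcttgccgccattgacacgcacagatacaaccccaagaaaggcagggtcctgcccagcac
In the 4 clustered H1 genes the H1 box began 112 to 122 bases and the CCAAT nearest the start 51 to 54 bases before the start. Neither motif was found in the window of H1fx, which lies partly inside its GENCODE gene span, or of H2afy2, which lies wholly inside. These 2 windows held 30 and 14 CpG dinucleotides, against a median of 6 over all windows.

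Total counts per library ran from 9272134 to 26284079, and levels are given as CPM, which are counts scaled to 1000000 TMM-scaled total counts. Kmt5c, the targeted gene, stood at 72.2, 75.7 and 67.2 CPM in control 1 and 53.6, 64.2 and 56.0 in hairpin 1 (log2 fold change -0.31, SE 0.175, edgeR adjusted p = 0.801). In set 2 it stood at 129, 121, 116 and 128 CPM in control 2 and 114, 111, 99.3 and 106 in hairpin 2 (log2 fold change -0.20, SE 0.0619, adjusted p = 0.0977). Each hairpin library lay below all its controls. In set 2 this held for 8.42% of all genes tested, and the share for set 1 is not reported here. Neither decrease passed the test. The set 2 decrease passed once replicate number was fitted as a block (edgeR adjusted p = 0.00741), a fit that called 20.4% of all genes tested, 10.1% as lower. The 8 epithelial markers checked, such as Epcam and Krt8, were present in every library. Their sum was 5408 to 7251 CPM in control 1 and 5949 to 7220 in hairpin 1. In set 2 it was 6017 to 6159 CPM in control 2 and 4802 to 5442 in hairpin 2, every hairpin 2 library being below every control. The fibroblast markers Dcn and Lum had no count in set 1. The 6 fibroblast markers summed to 0.280 to 2.10 CPM in set 1. In set 2, where 3 of the 6 are listed, the sum was 9.22 to 11.9 CPM in control 2 and 13.9 to 15.6 in hairpin 2, nearly all from Pdgfra. The part of these markers in the histone values was not tested. Germ cell markers, checked because some histone genes are specific to testis, were at 0.106 to 2.24 CPM.

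Most histone counts came from a few polyadenylated genes. In control 2 the 37 members took 0.200% ± 0.0120 of all counts (SD, n = 4), of which the 8 variants took 0.0939% ± 0.00544 and the 3 H1f genes 0.0870% ± 0.00596. The 24 replication-dependent genes together took 0.0185% ± 0.00180. In control 1 the variants took 0.214% ± 0.0198 (SD, n = 3), the H1f genes 0.0475% ± 0.00639 and the replication-dependent genes 0.00564% ± 0.00102. Levels across the sets were not tested.

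Per length, the order of the members in control 2 began with H1f0, which encodes a linker histone associated with differentiated and resting cells, at 421 ± 28.7 CPM per kb of annotated exon (SD, n = 4). H3f3b, a gene for the replacement histone H3.3, followed at a mean of 171, and the clustered gene Hist1h1c at 80.1. H2afv, H2afj and H2afx came next at 42.5, 35.7 and 29.9 CPM per kb. Hist1h2bc, H2afy and H3f3a were close together at 22.1, 21.4 and 20.9, and H2afz stood at 15.6. In control 1 H3f3b led at 317, H2afz was next at 267 and then H1f0 at 232, and Hist1h1c stood at 16.1 CPM per kb.

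**Figure D1:**
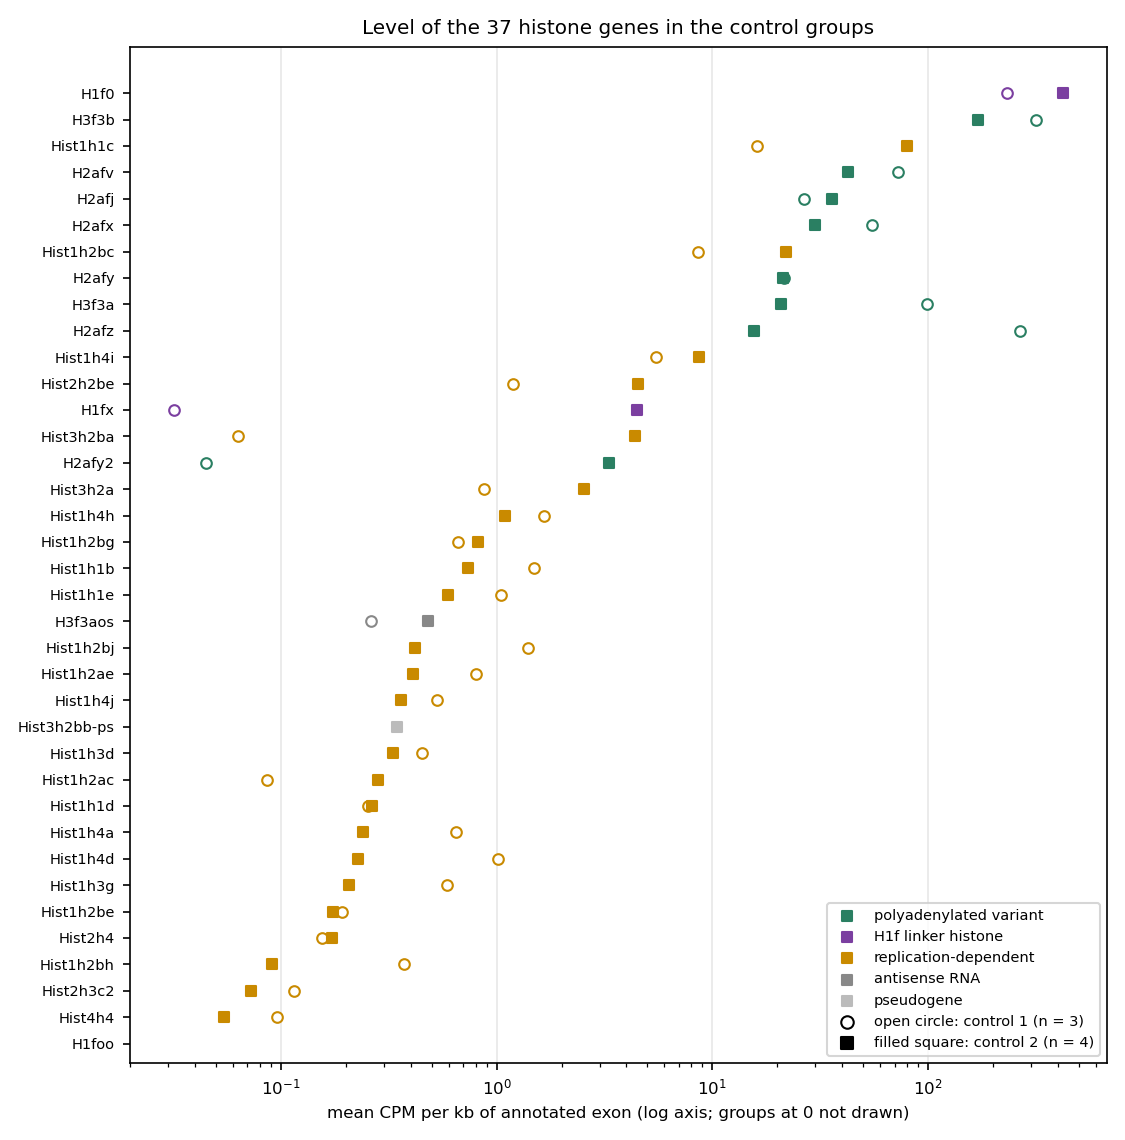
Mean level of each of the 37 members in control 1 (open circles, n = 3) and control 2 (filled squares, n = 4), in CPM per kb of annotated exon on a log axis, coloured by class and ordered by control 2. Variants and H1f0 fill most of the upper end, and most replication-dependent genes lie below 2 CPM per kb, with Hist1h1c at 80.1 in control 2 as the highest of them.

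Sequence shared between copies limits some of these levels. Of the 50-base stretches in annotated transcripts, 35.4% of those of H2afz and 27.1% of those of H3f3a also occur in other genes, including 4 and 39 pseudogenes. For Hist1h2bc the share was 30.6%, for Hist1h4i 28.9%, for Hist1h1c 8.54%, and for H2afv and Hist2h2be 0%. How reads with several matches were counted is not given in the sources used here. H2afz stood at 387, 506 and 527 CPM in control 1 and at 26.1, 25.6, 26.2 and 33.0 in control 2, and H3f3a at 329, 326 and 384 against 75.4, 70.3, 72.4 and 75.1.

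With hairpin 2, 2 histone genes were near 0 and far below control 2, and 1 was slightly higher than in control 2. Of 24 members tested, H1fx and H2afy2 fell and H2afy rose at an edgeR adjusted p under 0.05, against 6.05% of all 14126 genes tested (2.04% higher and 4.01% lower). The median log2 fold change over the 24 members was 0.13, beside 0.00499 over all genes tested. The remaining 13 members were below the filter on low counts.

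H1fx, the gene of the linker histone H1X, lies on chromosome 6 (GRCm38, 87980421 to 87981637, minus strand). It stood at 7.31, 5.41, 5.15 and 3.93 CPM in control 2 and at 0.134, 0.197, 0.108 and 0.498 in hairpin 2. All 4 hairpin 2 libraries were far below all 4 controls, and 8.42% of all genes tested had every hairpin 2 library below every control. The log2 fold change was -4.59 (SE 0.359, edgeR adjusted p = 6.2e-05) or 24.1-fold lower. The values rest on 161, 108, 135 and 98 counts against 3, 5, 1 and 6. With so few counts in hairpin 2, H1fx passed the filter on low counts through control 2. A gene that enters in this way can scarcely be called higher. In bulk RNA, fewer cells with a transcript and less of it per cell cannot be told apart. In set 1 H1fx was near 0 throughout, with 1, 0 and 1 counts in control 1 and 0, 7 and 3 in hairpin 1. It was not tested there, and the ratio of hairpin 1 to control 1 counts, scaled to the totals, was 4.3 with a 95% exact interval of 0.917 to 40.4 that covers counting error only.

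H2afy2 encodes macroH2A2, an H2A variant with a large extra domain known from repressed chromatin. It lies on chromosome 10 (GRCm38, 61738665 to 61784147, minus strand). Its level was 8.17, 9.01, 6.87 and 4.85 CPM in control 2 and 0.490, 0.473, 0.649 and 0.747 in hairpin 2. The groups were again far apart, the hairpin 2 libraries being lower, which held for 8.42% of all genes tested. They gave a log2 fold change of -3.67 (SE 0.263, edgeR adjusted p = 3.3e-05) or 12.8-fold lower. In set 1 it too was near 0, with 0, 0 and 5 counts in control 1 and 0, 2 and 4 in hairpin 1. The ratio of hairpin 1 to control 1 was 1.03 with an exact interval of 0.263 to 4.28, again for counting error only. Both genes thus had levels of several CPM in control 2 only, and hairpin 2 stood close to both groups of set 1. The labels do not say whether control 2 differs from the other groups in line or clone history, and a difference between clones cannot be told apart from one between hairpins.

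H1fx overlaps Gm47286 on its own strand and Gm5577 on the opposite strand, and H2afy2 overlaps Aifm2 and Mir5108 on the opposite strand. The libraries were made with a stranded kit, and the strand setting of the counting is not given in the sources used here.

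H2afy, the gene of macroH2A1, rose by a small amount. Control 2 libraries stood at 152, 150, 151 and 129 CPM and hairpin 2 libraries at 177, 173, 185 and 177. The groups did not overlap, the hairpin 2 libraries being higher, as for 6.88% of all genes tested (log2 fold change 0.29, SE 0.0627, edgeR adjusted p = 0.0238). On this chromosome, 13, the median over tested genes was 0.18, and the change of H2afy relative to that median was 0.11. The call was lost when any 1 of control 2 replicates 1 and 2 or hairpin 2 replicates 1, 2 and 3 was left out (edgeR adjusted p 0.0506 to 0.076) and in the model of all 14 libraries (adjusted p = 0.864). In set 1 H2afy stood at 137, 155 and 145 CPM in control 1 and 113, 173 and 184 in hairpin 1, and the groups overlapped (log2 fold change 0.10, SE 0.225, adjusted p = 0.935).

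**Figure D2:**
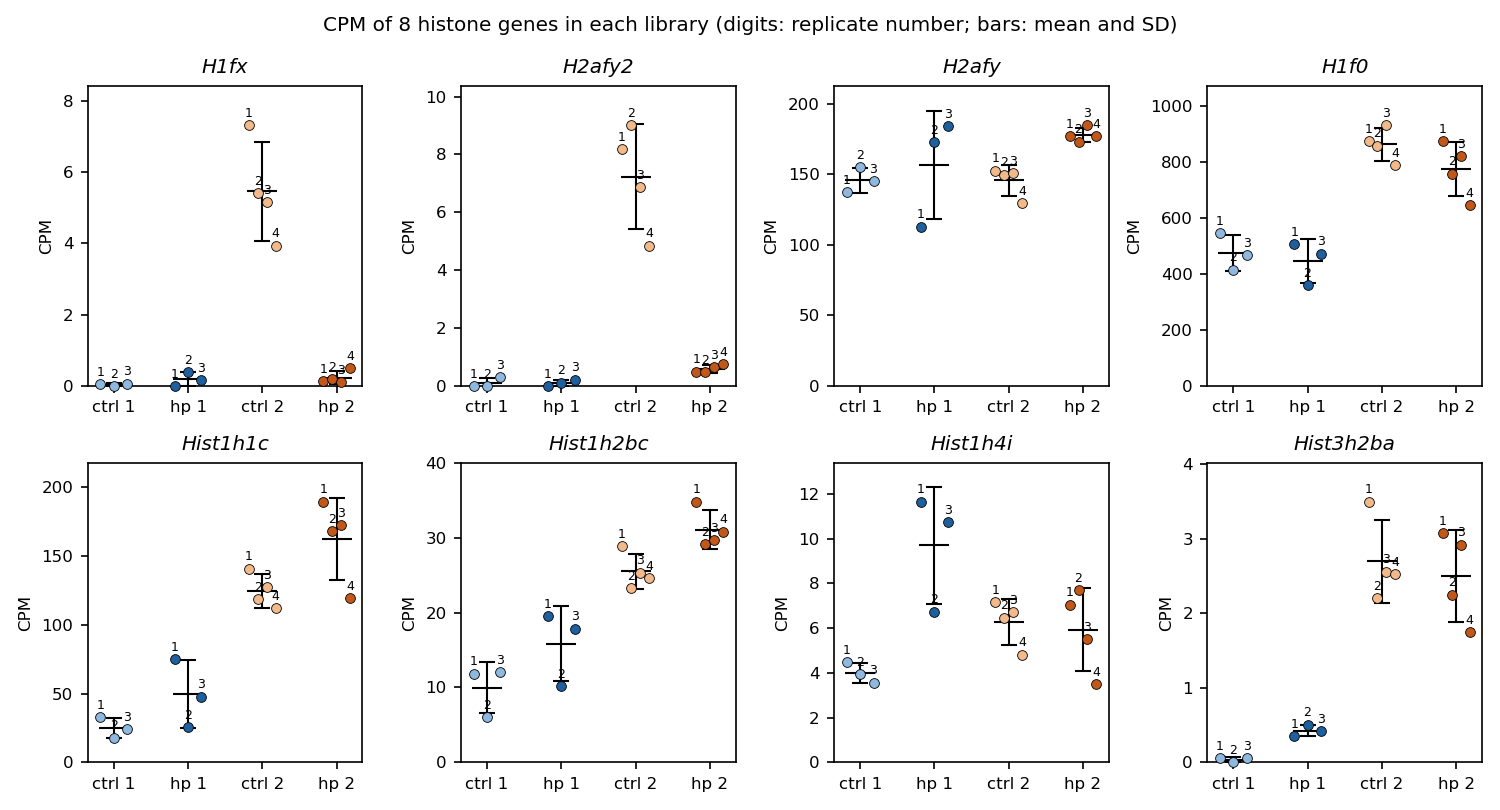
CPM of 8 members in each library, by group (ctrl, control; hp, hairpin), with digits for the replicate number and bars for the mean and SD. H1fx and H2afy2 stand above 3.9 and 4.8 CPM in all control 2 libraries and below 1 CPM in hairpin 2 and in both groups of set 1.

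In set 2 the replicate 4 libraries of both groups deviated together (correlation 0.598). Among replicates 1 to 3, same-numbered pairs (0.153 to 0.249) correlated much as differently numbered ones did (0.108 to 0.216). Pairing by number is thus not established. The fit with that number as a block is given as an alternative where it changes a call. It called 8 members, against 20.4% of all genes tested (10.2% higher and 10.1% lower). H3f3b (0.16, adjusted p = 0.0279), H2afx (0.20, adjusted p = 0.0329), Hist1h2bc (0.29, adjusted p = 0.00499) and Hist1h1c (0.37, adjusted p = 0.00136) then passed as higher beside H2afy. H1f0 (-0.16, adjusted p = 0.0441) passed as lower beside H1fx and H2afy2. These values are log2 fold changes and edgeR adjusted p-values of the blocked fit.

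H1f0 stood at 875, 859, 933 and 790 CPM in control 2 and 875, 759, 822 and 647 in hairpin 2. The groups overlapped, and without the block the log2 fold change was -0.16 (SE 0.0938, edgeR adjusted p = 0.408). In set 1 control libraries held 546, 416 and 467 CPM and hairpin 1 libraries 507, 359 and 473 (log2 fold change -0.09, adjusted p = 0.938). H1foo, the linker histone gene of oocytes, had 1 count in all 14 libraries.

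Neither H3.3 gene passed the unblocked test with hairpin 2. H3f3b stood at 538, 528, 529 and 443 CPM in control 2 and at 578, 561, 602 and 527 in hairpin 2, and the groups overlapped through hairpin 2 replicate 4 (log2 fold change 0.15, SE 0.0740, edgeR adjusted p = 0.286). H3f3a stood at 75.4, 70.3, 72.4 and 75.1 CPM in control 2 and at 78.8, 84.3, 73.3 and 69.1 in hairpin 2 (0.06, SE 0.0690, adjusted p = 0.688). Its antisense RNA H3f3aos, which overlaps H3f3a on the other strand, was at 1.36 to 1.53 CPM in control 2 and 0.865 to 1.49 in hairpin 2 (-0.28, adjusted p = 0.468).

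Among H2A variants, H2afx, whose product is phosphorylated at DNA breaks, was at 40.3, 41.5, 39.8 and 44.1 CPM in control 2 and at 44.9, 43.6, 45.6 and 57.4 in hairpin 2. Replicate 4 was the highest of each group, the groups overlapped, and the log2 fold change was 0.21 (SE 0.0910, edgeR adjusted p = 0.242). H2afz and H2afv encode the forms of H2A.Z, a variant found around promoters. H2afz was at 25.6 to 33.0 CPM in control 2 and 19.9 to 42.9 in hairpin 2 (0.03, SE 0.205, adjusted p = 0.955), with replicate 4 the highest of both groups. H2afv was at 63.8 to 74.0 and 59.8 to 71.5 CPM (-0.08, adjusted p = 0.63), and H2afj at 58.9 to 72.2 and 66.1 to 68.2 (0.04, adjusted p = 0.826).

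Most replication-dependent genes were low, and Hist1h1c held the largest share of their counts in both sets. It took 69.3% of the counts of the class in set 2 and 49.4% in set 1. With Hist1h2bc, Hist2h2be, Hist1h4i and Hist3h2a it took 94.2% and 83.9%. In set 2 17 of the 24 genes, and in set 1 19, had a mean under 2 CPM. The 4 replication-dependent H1 genes, whose promoter windows are printed above, differed widely in control 2, at 80.1 CPM per kb for Hist1h1c, 0.736 for Hist1h1b, 0.592 for Hist1h1e and 0.264 for Hist1h1d.

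Of the 13 replication-dependent genes tested in set 2, none passed the test, 2 had an unadjusted p under 0.05 (19.8% of all genes tested did), and 10 had a log2 fold change above 0. Their median was 0.21, beside 0.00499 over all genes tested. The other 11 were below the filter. Many of the class lie in the Hist1 cluster on chromosome 13. Its members listed in both file types have start coordinates from 21735064 to 23760692 (GRCm38), and some other Hist1h genes lie outside this stretch. Within the stretch, 9 of 137 non-histone genes were tested. None of these passed, 6 were above 0, and their median was 0.17, beside 0.18 over all tested genes of the chromosome.

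Hist1h1c encodes a main somatic linker histone, H1c. It stood at 141, 119, 127 and 112 CPM in control 2 and at 190, 168, 172 and 120 in hairpin 2. Hairpin 2 replicates 1, 2 and 3 were above all controls and replicate 4 lay within their range (log2 fold change 0.38, SE 0.129, edgeR adjusted p = 0.125). Without hairpin 2 replicate 4 the value was 0.50 and passed the test (adjusted p = 0.00325), and over all alternatives run the adjusted p was 5.7e-05 to 1. Relative to the chromosome median it was 0.20.

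Hist1h2bc, an H2B gene, was at 28.8, 23.3, 25.3 and 24.6 CPM in control 2 and at 34.8, 29.1, 29.6 and 30.8 in hairpin 2. The groups did not overlap, the hairpin 2 libraries being higher, which held for 6.88% of all genes tested. The log2 fold change was 0.29 (SE 0.0885, edgeR adjusted p = 0.0937), and 0.11 relative to the chromosome median. Hist2h2be, another H2B gene, on chromosome 3, was at 11.03 to 12.8 CPM in control 2 and 9.78 to 12.2 in hairpin 2 (-0.06, adjusted p = 0.793). Hist3h2a, an H2A gene on chromosome 11, was at 4.21 to 6.16 and 5.17 to 8.32 CPM (0.21, adjusted p = 0.568). Hist1h4i, the most abundant H4 gene, was at 4.81 to 7.17 and 3.48 to 7.69 CPM (-0.05, adjusted p = 0.94).

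**Figure D3:**
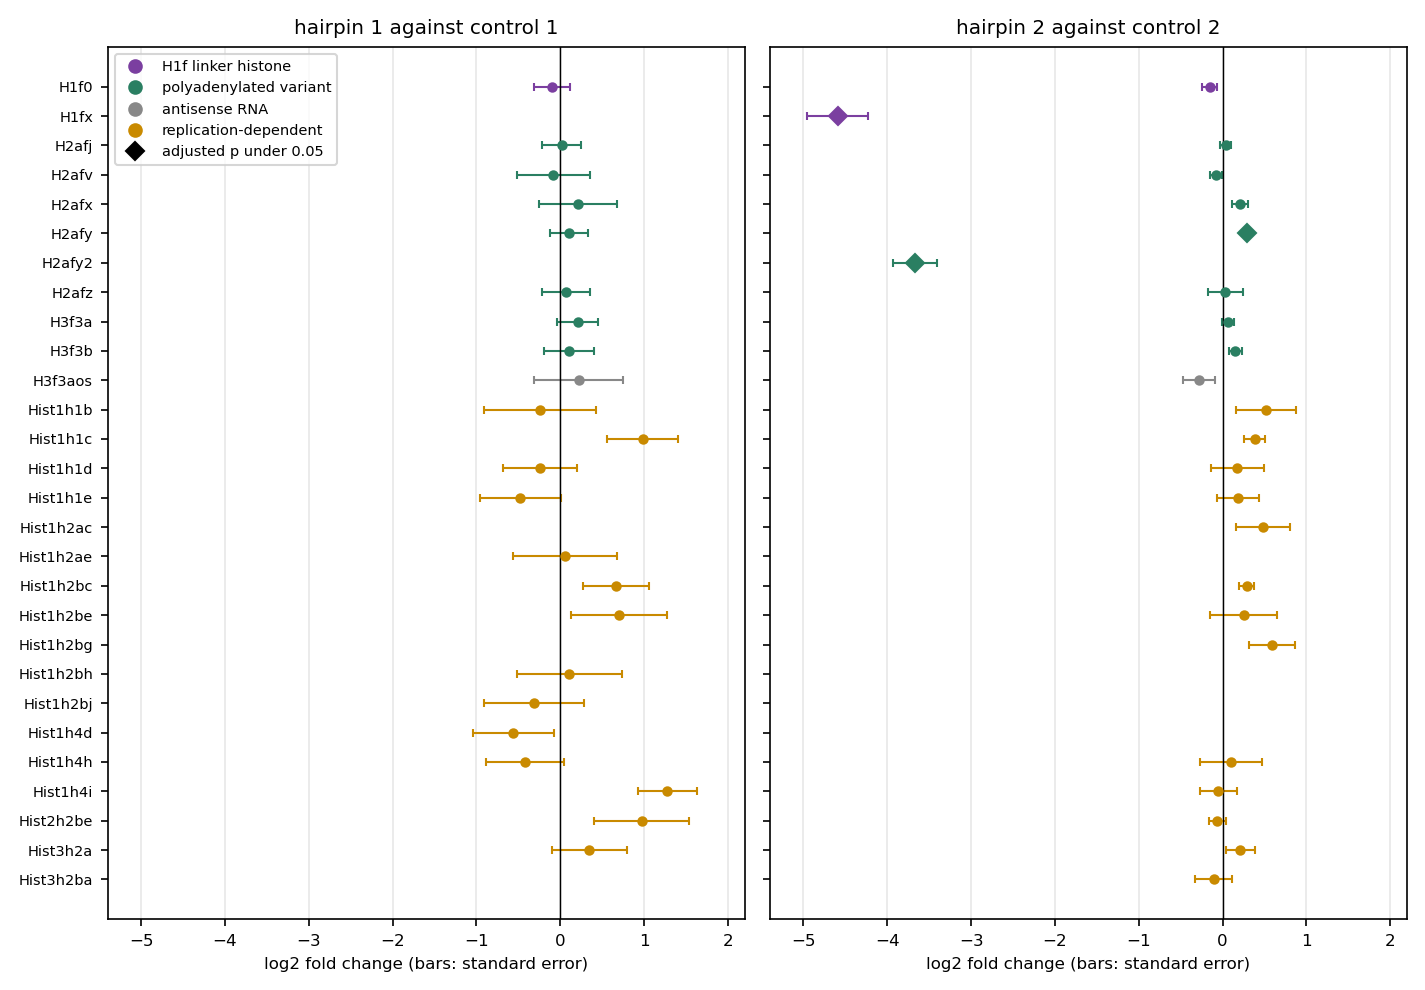
Log2 fold change of each tested member with its standard error, for hairpin 1 (left) and hairpin 2 (right), coloured by class, with diamonds for an adjusted p under 0.05. H1fx at -4.59 and H2afy2 at -3.67 stand apart in hairpin 2, and the standard errors for hairpin 1 are wider.

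For hairpin 1, 23 members were tested and none passed the edgeR test, nor did any of the 13540 genes tested (0%). One member had an unadjusted p under 0.05, against 5.41% of all genes, and DESeq2 and voom also called 0 members. The median log2 fold change was 0.10 over the 23 members, 0.08 over the 14 replication-dependent genes among them and 0.03 over all genes tested.

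Hist1h4i was the member with the unadjusted p under 0.05. It stood at 4.47, 3.95 and 3.57 CPM in control 1 and at 11.7, 6.73 and 10.7 in hairpin 1. All hairpin 1 libraries were above all controls, as for 6.5% of all genes tested (log2 fold change 1.28, SE 0.351, edgeR adjusted p = 0.801). In set 2 its groups overlapped, and the difference between the hairpin effects was -1.36 (SE 0.405, adjusted p = 0.194).

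Hist1h1c was at 32.9, 17.98 and 24.4 CPM in control 1 and 75.2, 25.6 and 47.9 in hairpin 1 (log2 fold change 0.98, SE 0.420, edgeR adjusted p = 0.801). Replicate 1 was by far the highest, and without it the value was 0.55. Hist1h2bc was at 11.8, 6.01 and 12.04 against 19.5, 10.2 and 17.8 CPM (0.67, adjusted p = 0.801), with overlapping groups. Hist2h2be was at 3.78, 2.65 and 2.98 against 11.6, 3.31 and 3.60 (0.97, adjusted p = 0.801), with hairpin 1 replicate 1 far above the rest, and without that library the value was 0.14. Hist3h2a was at 1.74 to 1.99 and 1.36 to 3.17 CPM (0.35, adjusted p = 0.886).

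Polyadenylated variants varied strongly between the hairpin 1 libraries. Hairpin 1 replicate 1 was the lowest of the 6 libraries for all 7 variants tested, and replicate 3 the highest for 6 of them. H2afx was at 66.4, 79.3 and 82.2 CPM in control 1 and at 32.7, 93.7 and 137 in hairpin 1, so that the hairpin libraries lay on both sides of the controls (log2 fold change 0.21, SE 0.461, edgeR adjusted p = 0.935). H3f3b, at 851, 859 and 1118 against 620, 1160 and 1258 CPM (0.10, adjusted p = 0.951), and H2afz, at 324, 552 and 614 in hairpin 1 (0.07, adjusted p = 0.963), had the same order of libraries. H3f3a (0.21, adjusted p = 0.873), H2afv (-0.08, adjusted p = 0.971) and H2afj (0.02, adjusted p = 0.989) likewise did not pass.

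The 30 genes of an S-phase list, such as the Mcm helicase subunits and Pcna, varied with these libraries. Their summed level was 3387, 4221 and 4289 CPM in control 1 and 2879, 4250 and 4957 in hairpin 1, lowest and highest in the same 2 hairpin libraries as most variants. Hairpin 1 replicate 1 was at the same time the highest library for 5 of the 14 replication-dependent genes tested, including Hist1h1c, and the lowest for 6. It also held 49.8 summed CPM of 4 endothelial markers, nearly all from Cdh5, and 54.7 of 6 immune markers, mostly Cd68, beside 0.760 to 2.73 and 5.77 to 39.9 in the other set 1 libraries. In set 2 the S-phase sum was 1909 and 1785 CPM in replicate 4 of control 2 and hairpin 2 and 2503 to 2749 in the others. The part of these in the histone values was not tested.

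**Figure D4:**
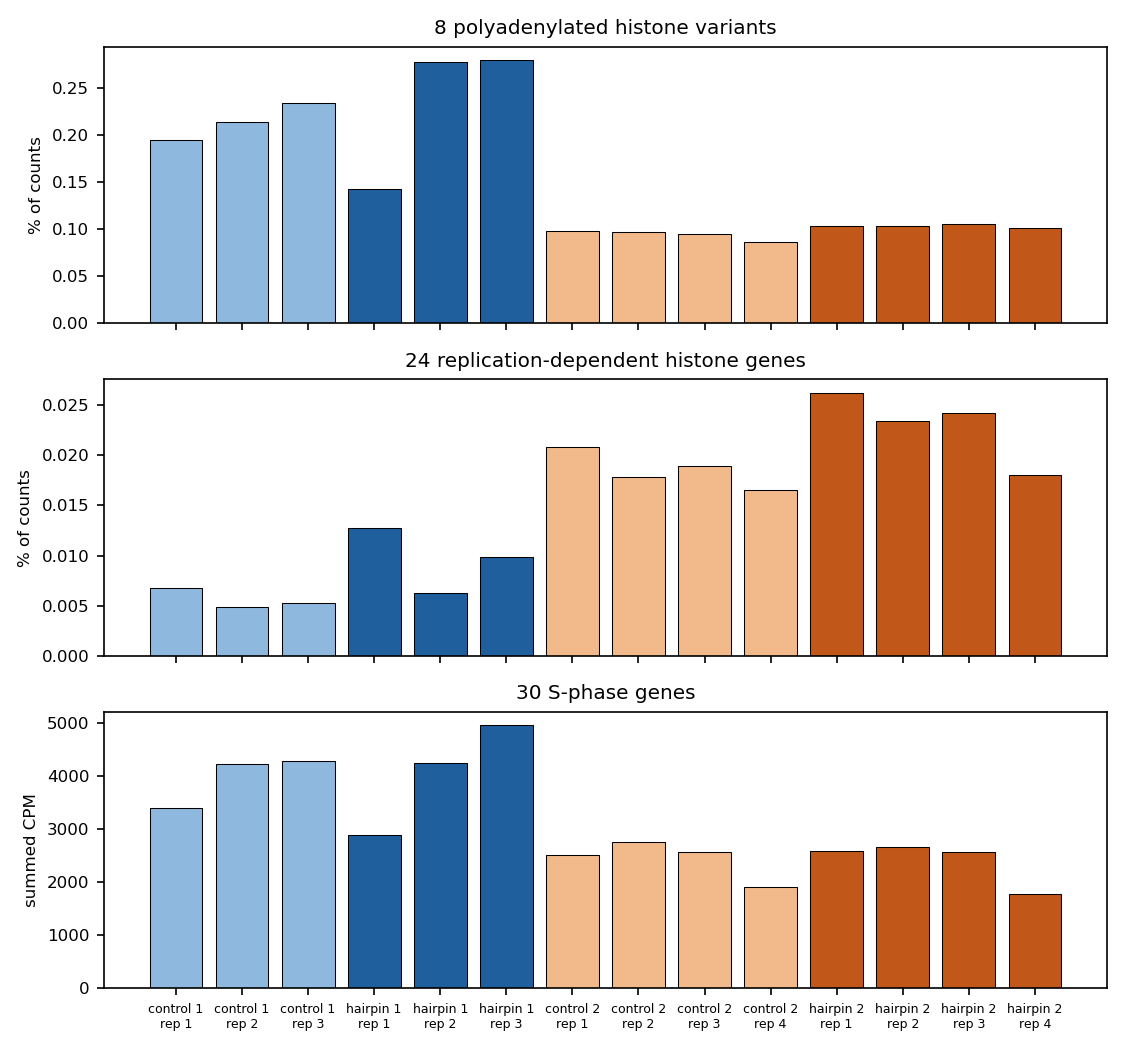
For each of the 14 libraries, the percentage of counts in the 8 variants and in the 24 replication-dependent genes and the summed CPM of 30 S-phase genes. Hairpin 1 replicate 1 is the lowest of set 1 for the variants and the S-phase genes and the highest for the replication-dependent genes.

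The difference between the 2 hairpin effects was tested for 29 members in 1 model of all 14 libraries, and 2 were called, both lower for hairpin 2, against 0.412% of 15043 genes tested (0.366% lower). H1fx had a difference of -6.57 (SE 1.25, edgeR adjusted p = 0.0402), and Hist3h2ba, an H2B gene, one of -3.38 (SE 0.665, adjusted p = 0.0482). For Hist3h2ba set 1 held 1, 0 and 1 counts in control 1 and 8, 9 and 8 in hairpin 1, a ratio of 10.8 with an exact interval of 2.68 to 93.7 that covers counting error only. In set 2 it stood at 3.50, 2.2, 2.56 and 2.53 CPM in control 2 and at 3.07, 2.25, 2.92 and 1.74 in hairpin 2 (log2 fold change -0.11, adjusted p = 0.844). Both genes were below the filter in set 1 and entered this model through set 2, H1fx through control 2. A gene that enters through control 2 can scarcely be called higher for hairpin 2. Both calls rest on counts near 0 in control 1 and were lost with the block (adjusted p = 0.107 and 0.0919). In all, the H1fx call was lost in 13 of 20 alternatives and that of Hist3h2ba in 17 of 20. H2afy2 had a difference of -3.72 (SE 1.30, adjusted p = 0.265).

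The replication-dependent class had higher mean shares of counts in the hairpin groups than in their controls, at 0.00961% ± 0.00328 (SD, n = 3) for hairpin 1 and 0.0230% ± 0.00351 (SD, n = 4) for hairpin 2, with overlapping libraries in both sets. Variants took 0.233% ± 0.0779 in hairpin 1 and 0.103% ± 0.00180 in hairpin 2, and H1f genes 0.0446% ± 0.00600 and 0.0776% ± 0.00931. The variant shares overlapped in set 1. They did not in set 2, at 0.0861% to 0.0982% in control 2 and 0.1009% to 0.1053% in hairpin 2. Within the replication-dependent class the mean share was not higher in every subset. That of the H4 genes was 0.000791% ± 0.000115 in control 2 and 0.000742% ± 0.000264 in hairpin 2, and that of the 43 replication-dependent genes listed in set 1 only was 0.00101% ± 0.000184 in control 1 and 0.000954% ± 0.000576 in hairpin 1. No p-value was computed for these sums.

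Genes that process histone mRNA, carry histones to chromatin or act in S phase showed no calls in the unblocked fits. Those fits called 0% of all genes tested with hairpin 1 and 6.05% with hairpin 2. For hairpin 1 the counts of 0 below therefore say nothing particular to these lists. All 15 matched processing genes, which include the stem-loop binding protein Slbp and the cleavage factors Cpsf2 and Cpsf3, were tested in both sets, with 0 called and median log2 fold changes of 0.08 (hairpin 1) and 0.02 (hairpin 2). Among 28 chaperone and deposition genes, such as Asf1a, Hira and Daxx, 0 were called and the medians were 0.01 and -0.02. Among the 30 S-phase genes 0 were called and the medians were 0.19 and -0.04. With the block, which called 20.4% of all genes tested with hairpin 2, it gave 1 of the 15 processing genes as higher (Cpsf2, 0.15, edgeR adjusted p = 0.0212) and 3 of the 28 chaperone genes as lower, the nucleosome assembly protein gene Nap1l1 (-0.17, adjusted p = 0.0145), Cabin1 (-0.21, adjusted p = 0.00799) and the centromeric chaperone Hjurp (-0.13, adjusted p = 0.042). Of the 30 S-phase genes it gave 4 as higher and 3 as lower, among them Rfc3 at 0.20, Tyms at 0.33 and Cdt1 at -0.18 without the block.

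The other 54 genes with a histone symbol are listed in set 1 only. They comprised 43 replication-dependent genes, 7 pseudogenes, 3 variants and 1 H1f gene, of which 15 had no count and 2 a mean of 1 CPM or more. These 2 were the pseudogene H3f3a-ps1 at 5.98 CPM and Hist1h3c at 1.24. Together the 54 took 0.00164% ± 0.000163 of counts in control 1 (SD, n = 3).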

How the data were processed

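Poly(A) RNA from 14 mouse organoid libraries was measured. The authors deposited raw gene counts (whole numbers, no normalization) in a separate file for each library. Per the submitters' processing notes, bcl2fastq 2.20, FastQC, STAR, featureCounts and DESeq2 and the build GRCm38 were used; how reads were aligned and assigned beyond that is not given in the sources used here. There are 55421 genes in the files of set 1 and 17490 in those of set 2. Total counts ran from 9272134 to 26284079 per library. Groups came from the labels. No pair of libraries within a group agreed within sampling noise.

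The members, gene lists and tests were chosen with earlier results of these data known. Each set was tested alone on all genes listed in its files by the quasi-likelihood method of edgeR 4.0.16 under R 4.3.3 (TMM, filterByExpr, Benjamini-Hochberg adjustment over all genes tested, threshold 0.05). The difference between hairpins used 1 model of all 14 libraries and the genes listed in both file types. Adjusted p-values come from edgeR unless another tool is named. The script was checked on simulated counts. CPM are counts scaled to 1000000 TMM-scaled total counts, and lengths are annotated exon lengths. Named genes were every H2af, H3f3 and H1f member tested, every called member, the 3 most abundant replication-dependent members of each histone family, and Kmt5c. From the lists of histone mRNA processing, chaperones and S phase, up to 4 genes by smallest p in set 2 were named with values, and some listed genes are not reported here. Lists of epithelial, fibroblast, immune, endothelial and germ cell markers were summed.

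Same-numbered libraries of set 2 had correlated deviations from their group means (0.249, 0.153, 0.247 and 0.598), each above the limit of 0.1 set for pairing. Differently numbered pairs among replicates 1 to 3 gave 0.108 to 0.216, above that limit too. Those with 1 replicate 4 library gave -0.391 to -0.268, and hairpin 2 replicate 2 correlated most with control 2 replicate 1 (0.195). The limit thus does not show pairing by number among replicates 1 to 3, and the labels do not state it. The block was kept as an alternative. In set 1 the same-numbered values were 0.231, -0.0169 and 0.269, so no pairing was assumed. Stem-loops were searched in GENCODE M21 transcripts with up to 2 mismatches, and promoters in RefSeq windows. Alternatives were DESeq2's size factors and Wald test (DESeq2 1.42.0), no filter, the replicate block, the model of all 14 libraries, only genes listed in both file types, and leaving out each library. Voom with quality weights (limma 3.58.1), leaving out both replicate 4 libraries and subtracting chromosome medians were added after the data were seen.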

Additional observations from a re-analysis of the deposited data

Results flagged for a closer look

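In 56 groups of 4 libraries (members of set 2), 1 library stood apart from the other 3 by Dixon's criterion in 6 cases. For a single group chance alone flags about 1 in 20. The groups are members measured in the same libraries and are not independent, so this rate cannot show whether 6 cases exceed chance. Replicate 4 was the library concerned in 4 of the 6. H2afx stood at 57.4 CPM in hairpin 2 replicate 4, beside 43.6 to 45.6 in the others. In control 2 replicate 4 H2afy was at 129 CPM beside 150 to 153, H3f3b at 443 beside 528 to 538, and H2afz at 33.0 beside 25.6 to 26.3. The summed level of the 30 S-phase genes was also lowest in replicate 4 of both groups, at 1909 and 1785 CPM, and its part in these values was not tested. Hist1h3d stood at 0.611 CPM in control 2 replicate 3, beside 0.321 to 0.363, and Hist1h4h at 0.751 in control 2 replicate 2, beside 0.42 to 0.454, both on 16 counts or fewer.

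H1fx and Hist3h2ba were called by the test of the difference between the hairpin effects, at -6.57 and -3.38 on the log2 scale (edgeR adjusted p = 0.0402 and 0.0482). Both were below the filter in set 1 and entered the model through set 2, and hairpin and set cannot be told apart. The replicate block ended both calls (adjusted p = 0.107 and 0.0919). Both had 2 counts in all of control 1.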

How the results depend on the processing

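H1fx and H2afy2 fell past the threshold with hairpin 2 under every alternative run, at log2 fold changes of -5.18 to -4.35 and -3.95 to -3.55. The count of members called with hairpin 2 was 3 and became 8 with the replicate block, 5 with voom and library quality weights and 5 without both replicate 4 libraries. It was 2, with H2afy lost, in the model of all 14 libraries and 2 to 4 when 1 library was left out. Of all genes tested, the unblocked test of set 2 called 6.05% and the block 20.4%. The shares for the other fits are not reported here, so their counts do not show a change particular to the members. For hairpin 1 the count was 0 and became 1 in the model of all 14 libraries, and the replicate block gave 0. The 1 was Hist3h2ba, which was below the filter in set 1 alone and was tested in that model through set 2. The share of all genes called for hairpin 1 in that model is not reported here. For the difference the count was 2 and became 1 without a filter, 0 with the replicate block, 0 without both replicate 4 libraries and 0 to 3 when 1 library was left out. The unblocked test of the difference called 0.412% of all genes tested, and the shares for its alternatives are not reported here. The H1fx difference kept its call when control 1 replicate 2, hairpin 1 replicate 1 or hairpin 2 replicate 4 was left out and lost it when any other 1 library was (edgeR adjusted p 0.00111 to 0.155 in all). The Hist3h2ba difference kept its call with DESeq2's size factors and without control 1 replicate 2 or hairpin 1 replicate 1, and lost it in the other 17 of 20 alternatives (adjusted p 0.0139 to 0.126 in all). Leaving out 1 library moved the hairpin 1 median of replication-dependent genes between -0.162 and 0.381, the latter without control 1 replicate 2.

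Members whose log2 fold change lay near 0 and did not pass changed sign under some settings, and the cause was not tested. With the replicate block these were H2afj (-0.00266) and H2afx (-0.00409) for hairpin 1 and Hist1h4h (-0.0274) for hairpin 2. With voom they were H2afv (0.214) for hairpin 1 and H2afz (-0.0753) and Hist1h4i (0.0571) for hairpin 2, and without both replicate 4 libraries H2afz (-0.101) and Hist1h4i (0.044). When 1 library was left out, hairpin 1 values ran from -0.197 to 0.047 for H1f0, -0.15 to 0.144 for H2afj, -0.313 to 0.264 for H2afv, -0.238 to 0.603 for H2afx, -0.0797 to 0.298 for H2afz, -0.0512 to 0.357 for H3f3b, -0.393 to 0.00198 for Hist1h1d and -0.177 to 0.528 for Hist1h2ae. For hairpin 2 they ran from -0.01 to 0.0881 for H2afj, -0.213 to 0.16 for H2afz, -0.0869 to 0.386 for Hist1h1d, -0.234 to 0.304 for Hist1h4h, -0.208 to 0.134 for Hist1h4i, -0.104 to 0.00894 for Hist2h2be and -0.245 to 0.0394 for Hist3h2ba. Members under 2 CPM rest on few counts, and poly(A) selection limits what these libraries show of replication-dependent mRNA.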
